A study of Sus scrofa with 20 samples.

Results

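Solute carriers are membrane proteins that move sugars, amino acids, ions, metals, vitamins, nucleotide sugars and drugs across the plasma membrane and across the membranes of organelles. In the kidney many of them sit in the tubule, where sodium-coupled cotransporters and exchangers recover filtered solutes and organic ion transporters secrete drugs and waste products. Others serve every cell, for example in glucose uptake, in zinc and copper supply or in feeding the Golgi apparatus with nucleotide sugars. The genes described here were all those whose platform gene symbol started with SLC and a digit and which had a probe set of their own, without the mitochondrial carriers (SLC25A) and without SLC2A2, SLC7A9, SLC7A7 and SLC37A4. Where several probe sets measured a gene, the one brightest on average across the 20 arrays was read. The rule gave 95 genes of 36 families, among the 6765 genes with 1 symbol and the 23999 probe sets tested. Of the 95, 92 encode transporters or their subunits and 3 carry an SLC symbol without being transporters: SLC9A3R1 and SLC9A3R2 (scaffold proteins) and SLC2A4RG (a transcription regulator).

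Kidney RNA came from 20 randomized pigs and was hybridized to Affymetrix arrays for the pig, 1 colour and 1 array for each animal number. In the group with neurologic death (ND), 10 animals had a burr hole, catheters and anaesthesia, and a subdural balloon that was inflated until ND was established. The 10 Control animals had the burr hole, catheters and anaesthesia alone. All were ventilated for 6 h after randomization, received 0.9% saline in boluses of 2 cc/kg where needed and had their mean arterial pressure kept above 35 mmHg, so the Control group is anaesthetized and operated, not untouched. The labels used here give no strain, sex or age. A name such as ND_47 gives an animal's group and its number. Every value is a log2 signal, every difference is ND minus Control, and every adjusted p is limma's with Benjamini-Hochberg adjustment over all 23999 probe sets. A gene is said to be higher or lower in ND only where this adjusted p was under 0.05. Replicates were single animals, and their number limits the precision.

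Array medians lay between 5.15 and 5.35 in ND and between 5.09 and 5.28 in Control. Kidney markers were bright in both groups: the endocytic receptor LRP2 averaged 13.60 in ND and 13.35 in Control, and the gluconeogenic enzyme FBP1 14.65 in ND and 14.93 in Control. Background was taken as the upper end of 23 control probe sets for tags and bacterial tryptophan genes, 2.79. ND_47 stood apart from the other arrays, with a median correlation of 0.970 with its own group, against 0.985 to 0.992 for the rest. Animal numbers were unevenly spread: 7 of 10 ND animals and 1 of 10 Control animals had numbers up to 100. What else differed between low and high numbers is not recorded in the labels, and effects of animal number and of ND can be told apart only in part.

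Of the 95 solute carrier genes 9 passed the test (9.47%), 5 higher and 4 lower in ND. The glucose transporter gene SLC2A3 had the largest difference, and the other genes higher in ND were SLC45A3, SLC52A2, SLC39A1 and SLC35B2. Those lower in ND were the copper importer SLC31A1, the zinc transporter SLC30A5, the acetyl-CoA transporter SLC33A1 and SLC35B1. The share was close to that of all genes with 1 symbol, of which 9.99% passed in either direction. The count is therefore no result about these 95 genes as a set. The same held by direction: 5.26% of the 95 were higher in ND against 5.44% of all genes, and 4.21% were lower against 4.55%. These shares leave out SLC2A2, SLC7A9, SLC7A7 and SLC37A4, which the rule excluded. Each of them was lower in ND (adjusted p 0.0104, 0.0206, 0.0331 and 0.00862), so the shares do not describe the whole family. The median difference was -0.03 over the 95 genes and -0.02 over all genes, and the median absolute difference was 0.16 over the 95 genes and 0.15 over all genes. ND and Control values overlapped for each of the 95 genes, while 0.591% of all genes had groups that did not overlap. In whole tissue a lower signal from fewer cells of a type and one from less RNA per cell cannot be told apart.

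**Figure D1:**
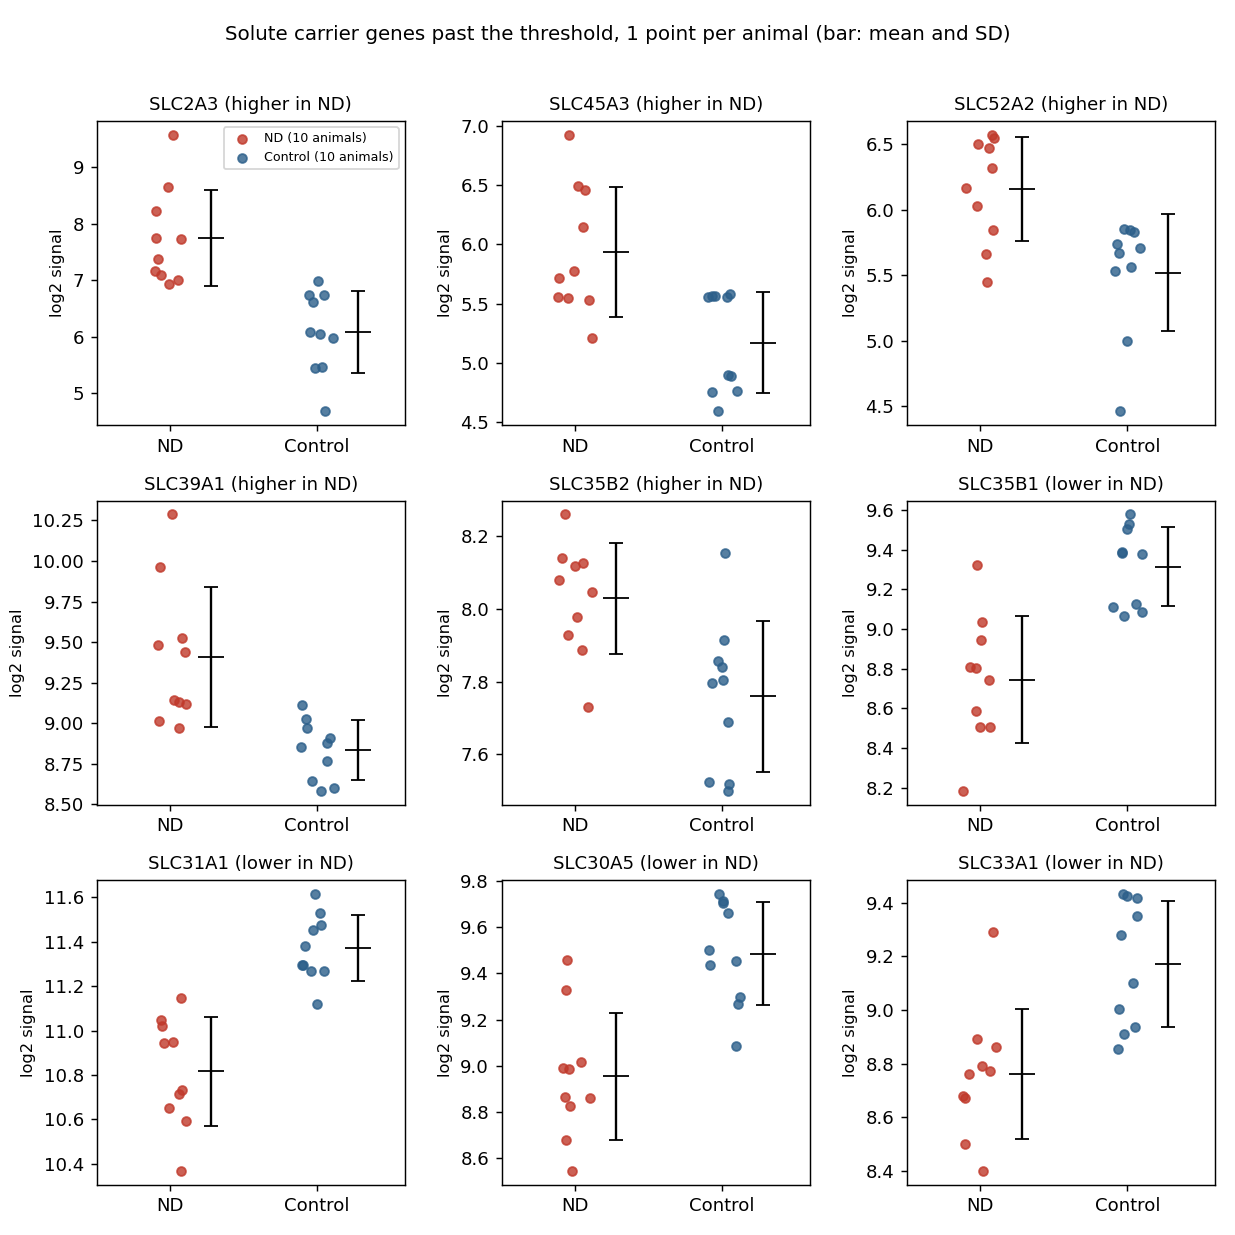
Log2 signal of the 9 solute carrier genes that passed the test, 1 point per animal, with ND (10 animals) left of Control (10 animals) and the group mean and SD as a bar. Each vertical axis has its own range. SLC2A3 shows the widest gap, with 9 of 10 ND animals above the highest Control animal.

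**Figure D2:**
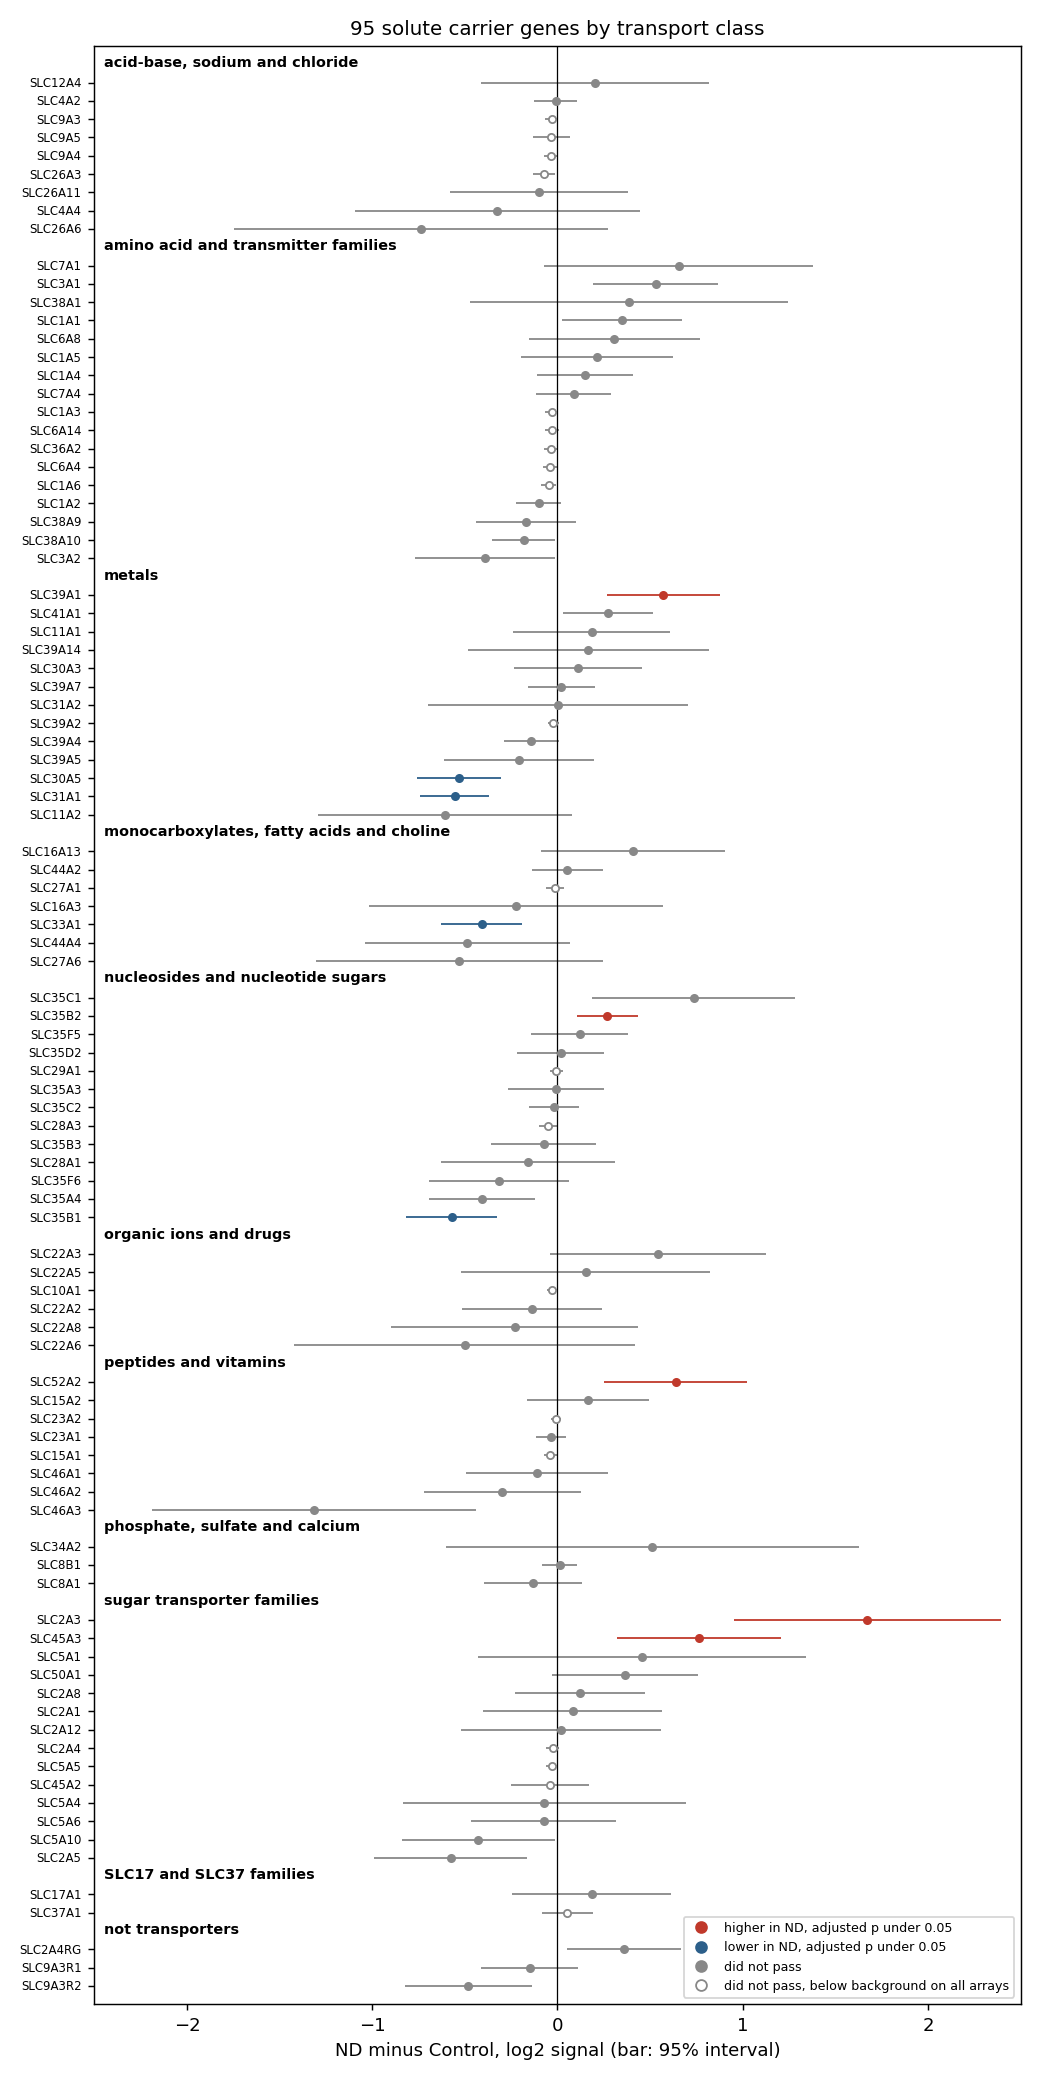
ND minus Control difference in log2 signal of all 95 genes, grouped by family, with the 95% interval as a bar. The 5 genes higher in ND are red and the 4 lower in ND are blue, and open circles mark genes below background on all 20 arrays, which lie close to 0.

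Genes were classed by family number. The sugar transporter families held 14 genes, of which 2 were higher in ND and none lower, with a median difference of -0.004. Among the 14 are SLC5A5, which carries iodide, and SLC5A6, which carries vitamins. SLC2A3 encodes GLUT3, a high-affinity glucose transporter known from neurons and also present in leukocytes. It read 6.93 in the lowest, 7.56 in the median and 9.58 in the highest ND animal, against 4.68, 6.07 and 6.99 in Control animals. Every ND animal lay above the Control mean and 9 of 10 above the highest Control animal. The means were 7.75 ± 0.85 in ND and 6.08 ± 0.73 in Control (SD, n = 10 each), a difference of 1.67 ± 0.34 (SE). This is 3.19-fold, at an adjusted p of 0.00591. Leaving out any 1 animal kept the call (difference 1.47 to 1.78, adjusted p 0.00551 to 0.0133). It was lost with a term for animals numbered up to 100 (1.34, adjusted p = 0.124) and among the 3 ND and 5 Control animals from Control_184 upwards (1.18, adjusted p = 0.213).

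Of 15 measured leukocyte markers 5 were higher in ND (CD3E, FCGR3A, ITGB2, LAPTM5 and TYROBP), at a median difference of 0.41 over the 15. Of all genes 5.44% were higher. CD3E was above background on 5 of 20 arrays. The scavenger receptor CD163 was lower, with the largest difference in size of the 15 (-2.04, adjusted p = 0.00194). Of the 5 higher markers LAPTM5 had the largest difference, 1.11. The 9 that did not pass ran from -0.31 (S100A9) to 0.83 (CD2), with PTPRC at 0.10 (adjusted p = 0.482). The mean level of the 15 markers ran from 4.83 to 6.01 in ND and from 4.93 to 5.36 in Control. Their summed level ran from 10.9 to 12.3 in ND and from 10.7 to 11.3 in Control. CD79B, ITGAM and S100A8, markers of B cells and of myeloid cells, were at background on all arrays. ND_47 was the highest animal for both SLC2A3 (9.58) and the mean of the markers (6.01). ND_92 had the second highest SLC2A3 (8.66) and the third highest marker mean (5.62). ND_22 had the second highest marker mean (5.82) with SLC2A3 at 7.09, and ND_198 the lowest (4.83) with SLC2A3 at 7.74. Of 9 measured endothelial markers CLDN5 was higher in ND, with a list mean of 6.12 to 7.72 in ND and 6.31 to 6.74 in Control. This list mean was highest in ND_47 (7.72), then in ND_92 (7.32). The part of either cell type in the SLC2A3 difference was not tested. Without ND_47 the difference of SLC2A3 was 1.47 (adjusted p = 0.00572).

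**Figure D3:**
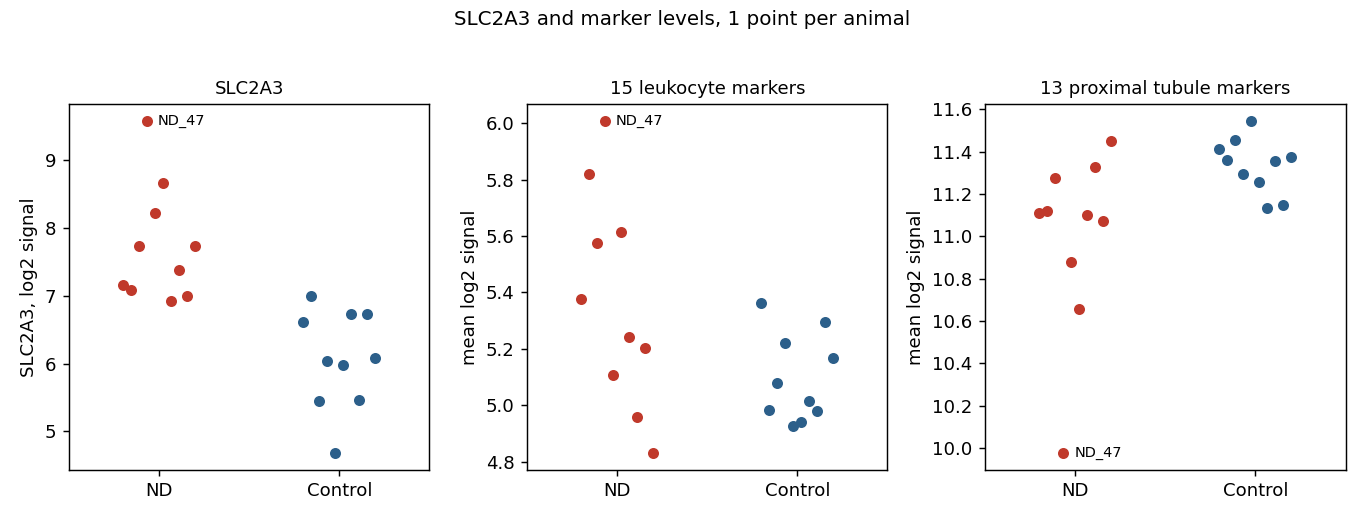
SLC2A3 signal, mean log2 signal of 15 leukocyte markers and mean log2 signal of 13 proximal tubule markers, 1 point per animal, ND left of Control, each panel with its own vertical range. ND_47 is the highest animal in the first and second panels and the lowest in the last. The groups overlap in all 3 panels, least so for SLC2A3.

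SLC45A3 (prostein, a proton-coupled sugar transporter) was the other gene of these families higher in ND. Its signal had a lowest, median and highest value of 5.21, 5.74 and 6.93 in ND, against 4.59, 5.22 and 5.58 in Control. Of the 10 ND animals 6 lay above the highest Control animal. The difference was 0.76 ± 0.21 (SE), or 1.70-fold (adjusted p = 0.0343). A dimmer probe set gave 1.03 with an adjusted p of 0.0746, and another, at background, gave 0.02. The call was lost without ND_92, ND_198, Control_02, Control_155, Control_156, Control_157 or Control_190, with an adjusted p of up to 0.0655, and also with the animal number term (0.98, adjusted p = 0.0597) and among the animals from Control_184 upwards (0.68, adjusted p = 0.272).

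The other 12 genes of these families did not pass. SLC2A5, the fructose transporter GLUT5 of the proximal tubule and gut, averaged 9.36 ± 0.54 in ND and 9.94 ± 0.35 in Control (SD, n = 10 each), a difference of -0.58 with a 95% interval of -0.99 to -0.16 (adjusted p = 0.0830). Among the settings tried, it was called lower only without ND_22 and with arrays shifted to the same median. That scaling called 24.3% of all genes lower. SLC5A10, a sodium-coupled mannose and fructose transporter of the kidney, differed by -0.43 (interval -0.84 to -0.01, adjusted p = 0.159). The glucose cotransporter SLC5A1 (SGLT1) averaged 9.14 ± 1.16 in ND and 8.68 ± 0.74 in Control, and its interval of -0.43 to 1.34 spans both directions (adjusted p = 0.450). The basal glucose transporter SLC2A1 (GLUT1) averaged 7.70 ± 0.47 in ND and 7.62 ± 0.59 in Control, a difference of 0.08 (interval -0.40 to 0.57, adjusted p = 0.819). SLC2A2, left out by the rule, was lower in ND, at a mean of 6.79 in ND and 8.61 in Control (difference -1.82 ± 0.41, SE, adjusted p = 0.0104).

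Among 13 metal transporter genes 1 was higher and 2 were lower in ND, at a median difference of 0.004. SLC31A1 encodes CTR1, the main copper importer of the plasma membrane, and had the smallest p of all 95 genes. Its lowest, median and highest signals were 10.37, 10.84 and 11.15 in ND, against 11.12, 11.34 and 11.61 in Control. All but 1 of the ND animals lay below the lowest Control animal. The difference was -0.55 ± 0.09 (SE), 1.47-fold lower in ND (adjusted p = 0.000887), and stayed called when any animal was left out (adjusted p 0.00052 to 0.00231). With the animal number term it was -0.44 and still called (adjusted p = 0.0376), while among the animals from Control_184 upwards it was -0.33 and not called (adjusted p = 0.138). The second probe set of the gene gave -0.34 (adjusted p = 0.127).

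SLC30A5 (ZnT5) carries zinc into the early secretory pathway. It read 8.55, 8.93 and 9.46 in the lowest, median and highest ND animal, against 9.09, 9.48 and 9.74 in Control animals, with 8 of 10 ND animals below the lowest Control animal. The difference was -0.53 ± 0.11 (SE), 1.44-fold lower in ND (adjusted p = 0.00582). A second probe set gave -0.49 (adjusted p = 0.0112), and the third was at background (-0.05). The call held without any 1 animal (adjusted p 0.00195 to 0.0129) and was lost with the animal number term (-0.43, adjusted p = 0.121) and from Control_184 upwards (-0.19, adjusted p = 0.644).

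SLC39A1 (ZIP1), a zinc importer of the plasma membrane, went the other way. Its lowest, median and highest signals were 8.97, 9.29 and 10.29 in ND, against 8.58, 8.87 and 9.11 in Control. With 8 of 10 ND animals above the highest Control animal, the difference was 0.57 ± 0.14 (SE), or 1.49-fold (adjusted p = 0.0204). The dimmer probe set gave 0.97 ± 0.19 (SE, adjusted p = 0.00402). Leaving out any animal kept the call (adjusted p 0.0135 to 0.0379), which the animal number term (0.53, adjusted p = 0.172) and the animals from Control_184 upwards (0.31, adjusted p = 0.365) did not.

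No other metal transporter gene passed. The magnesium transporter SLC41A1 differed by 0.27 (adjusted p = 0.134) and the intestinal zinc importer SLC39A4 by -0.14 (adjusted p = 0.191). SLC39A4 was near background, at a mean of 3.12 in ND and 3.26 in Control. SLC11A1 (NRAMP1), a metal transporter of macrophage lysosomes, was below background on all 10 Control arrays and on 9 of 10 ND arrays. The exception was ND_47, at 4.02. Its difference of 0.18 (adjusted p = 0.526) became -0.02 without that animal.

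Of 13 genes for nucleoside and nucleotide sugar transport 1 was higher and 1 lower in ND, at a median difference of -0.02. SLC35B1 exchanges ATP for ADP across the membrane of the endoplasmic reticulum. Its lowest, median and highest signals were 8.18, 8.77 and 9.32 in ND, against 9.06, 9.38 and 9.58 in Control. All ND animals but ND_47 lay below the lowest Control animal. The difference was -0.57 ± 0.12 (SE), 1.49-fold lower in ND (adjusted p = 0.00554), and the call held without any 1 animal (adjusted p 0.00117 to 0.0122). It held with the animal number term (-0.60, adjusted p = 0.0450) but not among the animals from Control_184 upwards (-0.57, adjusted p = 0.170).

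SLC35B2 carries the sulfate donor PAPS into the Golgi apparatus and was higher in ND by a small amount. It read 7.73, 8.06 and 8.26 in the lowest, median and highest ND animal, against 7.50, 7.80 and 8.16 in Control animals, so that 1 ND animal lay above the highest Control animal. The difference was 0.27 ± 0.08 (SE), or 1.21-fold (adjusted p = 0.0462). This was the least stable of the 9 calls: it was lost without ND_01, ND_22, ND_31, ND_86, ND_92, ND_100, ND_198, Control_02, Control_156, Control_157, Control_184, Control_190, Control_197 or Control_199, with an adjusted p of up to 0.0815. Neither the animal number term (0.29, adjusted p = 0.174) nor the animals from Control_184 upwards (0.21, adjusted p = 0.413) gave a call. The GDP-fucose transporter SLC35C1 averaged 4.95 in ND and 4.22 in Control (0.74 ± 0.26, SE, adjusted p = 0.0935), and SLC35A4 averaged 7.04 in ND and 7.45 in Control (-0.41 ± 0.14, SE, adjusted p = 0.0770). SLC35A4 was called lower only with arrays shifted to the same median, with quantile normalization and without ND_22 or Control_199. SLC35F5, among the brightest of the 95, differed by 0.12 (interval -0.14 to 0.38, adjusted p = 0.505).

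The 7 genes for monocarboxylates, fatty acids, choline and acetyl-CoA included 1 that was lower in ND, at a median difference of -0.23. SLC33A1 brings acetyl-CoA into the endoplasmic reticulum and Golgi apparatus. Its lowest, median and highest signals were 8.40, 8.77 and 9.29 in ND, against 8.86, 9.19 and 9.43 in Control, and 7 of 10 ND animals lay below the lowest Control animal. The difference was -0.41 ± 0.10 (SE), 1.33-fold lower in ND (adjusted p = 0.0207). Of its other probe sets one gave -0.37 (adjusted p = 0.0240), another -0.37 (adjusted p = 0.0871), and one at background -0.04. Without any 1 animal the call held (adjusted p 0.00446 to 0.0400), but not with the animal number term (-0.27, adjusted p = 0.331) or from Control_184 upwards (-0.49, adjusted p = 0.268). SLC44A4, a carrier of choline and of thiamine pyrophosphate, differed by -0.49 (interval -1.04 to 0.07, adjusted p = 0.214), and SLC16A13 of the monocarboxylate family by 0.41 (interval -0.09 to 0.90, adjusted p = 0.237).

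Among 8 peptide and vitamin transporter genes SLC52A2, a riboflavin transporter, was higher in ND and none was lower. It read 5.45, 6.24 and 6.58 in the lowest, median and highest ND animal, against 4.46, 5.69 and 5.86 in Control animals. With 7 of 10 ND animals above the highest Control animal, the difference was 0.64 ± 0.18 (SE), or 1.56-fold (adjusted p = 0.0419). The call was lost without ND_01, ND_47, ND_86, ND_92, ND_100, Control_02, Control_134, Control_156, Control_157, Control_184 or Control_197, with an adjusted p of up to 0.0772. It was lost as well with the animal number term (0.66, adjusted p = 0.189) and among the animals from Control_184 upwards (0.28, adjusted p = 0.277).

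SLC46A3, a lysosomal membrane transporter, had the largest negative difference of the 95 genes and did not pass. Its lowest, median and highest signals were 4.24, 6.45 and 8.11 in ND, against 5.87, 7.85 and 8.54 in Control, so the groups overlapped widely. The difference was -1.31 ± 0.42 (SE), with a 95% interval of -2.19 to -0.44 and an adjusted p of 0.0639, and a second probe set gave -0.91. SLC46A3 was called lower only with arrays shifted to the same median, with the filter on dim probe sets and without ND_01, ND_198 or Control_190. Neither the animal number term nor the animals from Control_184 upwards gave a call. The peptide transporter SLC15A1 (PEPT1) was below background on all arrays (2.19 in ND, 2.23 in Control).

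None of the 17 genes of the amino acid and transmitter transporter families passed, at a median difference of -0.03, although 5 had an unadjusted p under 0.05. SLC3A1 encodes rBAT, the heavy chain that brings the cystine and dibasic amino acid exchanger of the proximal tubule to the brush border. Its lowest, median and highest signals were 10.89, 11.89 and 12.34 in ND, against 10.92, 11.39 and 11.70 in Control. Of the 10 ND animals 7 lay above the highest Control animal, and ND_47 lay below every Control animal. The difference was 0.53 ± 0.16 (SE), with an interval of 0.19 to 0.87 and an adjusted p of 0.0526. Without ND_47 it was 0.64 with an adjusted p of 0.00545, and without Control_157 0.57 with an adjusted p of 0.0482. It also passed with arrays shifted to the same median (adjusted p = 0.049) and quantile normalization (0.035). The filter on dim probe sets (0.0355) and array weights (0.00773) gave a call as well. SLC3A1 did not pass with a variance trend (0.0501), on gene means (0.0737), with the animal number term (0.177) or from Control_184 upwards (0.0814). Of the 20 fits that left out 1 animal only 2 called it, with an adjusted p of up to 0.0927 in the others. A second probe set gave 0.23.

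The partner of SLC3A1 in the exchanger, SLC7A9, was left out by the rule and was lower in ND, at a mean of 9.77 in ND and 10.90 in Control (-1.13 ± 0.28, SE, adjusted p = 0.0206). SLC3A2, the heavy chain CD98 shared by the exchangers of the basolateral membrane, averaged 6.81 in ND and 7.20 in Control (-0.39 ± 0.18, SE, interval -0.77 to -0.01, adjusted p = 0.160). One of its light chains, SLC7A7, also left out by the rule, averaged 8.70 in ND and 9.48 in Control (-0.78 ± 0.21, SE, adjusted p = 0.0331). The glutamine transporter SLC1A5 (ASCT2), among the brightest of the 95, differed by 0.21 (interval -0.19 to 0.62, adjusted p = 0.441). SLC1A6, a glutamate transporter known from the cerebellum, was below background on all arrays.

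None of the 6 organic ion and drug transporter genes passed, and none had an unadjusted p under 0.05. SLC22A6 (OAT1), which takes up organic anions across the basolateral membrane of the proximal tubule, averaged 8.5 ± 1.22 in ND and 9.0 ± 0.74 in Control (interval of the difference -1.42 to 0.42, adjusted p = 0.422). SLC22A8 (OAT3) averaged 10.38 ± 0.95 in ND and 10.61 ± 0.40 in Control (interval -0.90 to 0.43, adjusted p = 0.616). The organic cation transporter SLC22A2 (OCT2) averaged 12.09 in ND and 12.22 in Control (interval -0.51 to 0.24, adjusted p = 0.601), and SLC22A3 (OCT3) 5.31 in ND and 4.77 in Control (interval -0.04 to 1.13, adjusted p = 0.193). The bile acid transporter SLC10A1 of the liver was below background on all arrays.

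None of the 9 genes for acid-base, sodium and chloride transport passed, and 4 of them were below background on all arrays. These 4 included SLC9A3 (NHE3), the sodium-proton exchanger of the proximal tubule, with 2.12 in ND and 2.15 in Control and both of its probe sets at background, so these arrays say nothing of its level. SLC4A4 (NBCe1), the basolateral sodium bicarbonate cotransporter, differed by -0.32 (interval -1.10 to 0.45, adjusted p = 0.541). The anion exchanger SLC26A6 varied most among these 9, at 5.92 ± 1.33 in ND and 6.66 ± 0.83 in Control (SD, n = 10 each; adjusted p = 0.286). SLC9A4 (2.57 in ND, 2.60 in Control) and SLC26A3 (2.62 in ND, 2.69 in Control) were below background on all arrays.

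The small classes held no call either. Among 3 genes for phosphate and calcium, the phosphate cotransporter SLC34A2 (NaPi-IIb) was below background on every array but ND_47, where it read 7.43, and the sodium-calcium exchanger SLC8A1 averaged 2.51 in ND and 2.64 in Control. SLC8A1 was above background on 1 ND and 1 Control array, and its difference of -0.13 was -0.0124 without Control_134. Of 2 further genes, SLC17A1, a urate and phosphate transporter of the proximal tubule, averaged 11.29 in ND and 11.10 in Control (interval of the difference -0.24 to 0.62), and SLC37A1 of the sugar phosphate exchanger family was below background on all arrays. Of the 3 genes that are not transporters, the scaffold SLC9A3R1 (NHERF1), the brightest of the 95, averaged 13.20 in ND and 13.35 in Control (-0.15, interval -0.41 to 0.11). SLC9A3R2 (NHERF2) differed by -0.48 ± 0.16 (SE, adjusted p = 0.0814) and SLC2A4RG by 0.36 (adjusted p = 0.124). With array weights SLC9A3R2 was called lower and SLC2A4RG higher, and with arrays shifted to the same median SLC9A3R2 was called lower. No other setting called SLC9A3R2.

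In total 25 of the 95 genes had an unadjusted p under 0.05, 10 higher and 15 lower in ND, and 8 differed by at least 1.5-fold. Signals were above background on all 20 arrays for 67 genes, among them all 9 that passed, and below it on all 20 for 20 genes. Those 20 differed by 0.07 at most, and 19 of the 20 differences were negative, as were 93.6% of the 842 genes in all that were below background on every array. For SLC1A4, SLC34A2, SLC11A1 and SLC7A4 all Control arrays were below background while 2, 1, 1 and 1 ND arrays were above it. The SD within groups had a median of 0.35 over the 95 genes.

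ND_47 was the highest or the lowest ND animal for 62 of the 95 genes, 20 times the highest and 42 times the lowest. The other ND animals held an end of their group for 5 to 26 genes and the Control animals for 8 to 31. It was also the lowest of all animals for proximal tubule markers. The mean level of 13 such markers was 9.98 in ND_47, against 10.7 to 11.4 in the other ND animals and 11.1 to 11.5 in Control, with a summed level of 15.6 to 16.8 in ND and 16.6 to 16.9 in Control. Over all animals 3 of the 13 were lower in ND (HNF4A, PCK1 and CYP27B1) and none higher, at a median difference of -0.20. Of all genes 4.55% were lower. The 10 markers that did not pass ran from -0.56 (KHK) to 0.25 (LRP2), with AQP1 at -0.03. The part of the 13 markers in the solute carrier values was not tested. Without ND_47, 6 solute carrier genes were higher and 4 lower: SLC52A2 was no longer called, and SLC3A1 and SLC2A4RG (adjusted p = 0.0335) were.

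**Figure D4:**
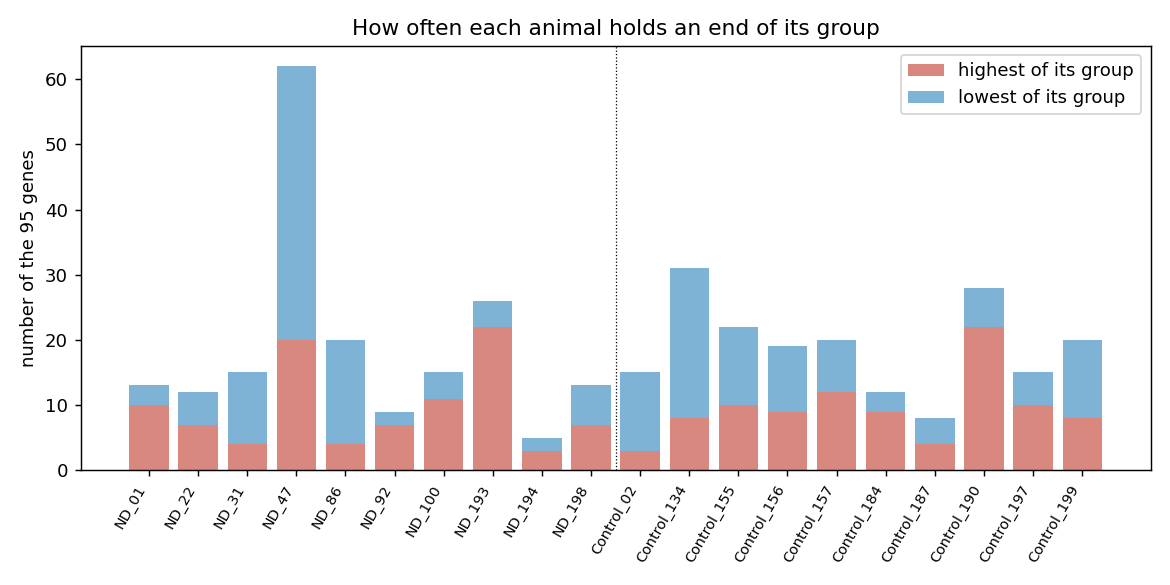
Number of the 95 genes for which each animal was the highest (red) or the lowest (blue) of its group, with the 10 ND animals left of the dotted line and the 10 Control animals right of it. ND_47 holds an end of its group for 62 genes, and no other animal for more than 31.

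The balance between higher and lower depended on the scaling. As deposited, 5 genes were higher and 4 lower in ND. After a shift of each array to the same median, 5 were higher and 24 lower, of which 14 were below background on all arrays. Of all genes 5.97% were higher and 24.3% lower under that scaling, shares near those of the solute carriers. With quantile normalization 3 were higher and 5 lower, against 5.65% and 5.53% of all genes. The direction of each of the 9 called genes was the same in every setting tried. With a term for animals numbered up to 100, none was higher and 2 were lower, SLC31A1 and SLC35B1, while 0.872% of all genes were higher and 1.91% lower. Under that term 9 genes were higher and 7 lower at an unadjusted p under 0.05. Among the 3 ND and 5 Control animals from Control_184 upwards, limma called none of the 95, with 11 higher and 9 lower at an unadjusted p under 0.05. Of all genes 0.148% were higher and 0.177% lower in that subset. Its ND and Control values did not overlap for 13 of the 95 genes (13.7%), among them SLC2A3, SLC31A1, SLC35B1, SLC39A1 and SLC45A3, against 12.1% of all genes, a share near that of the solute carriers.

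**Figure D5:**
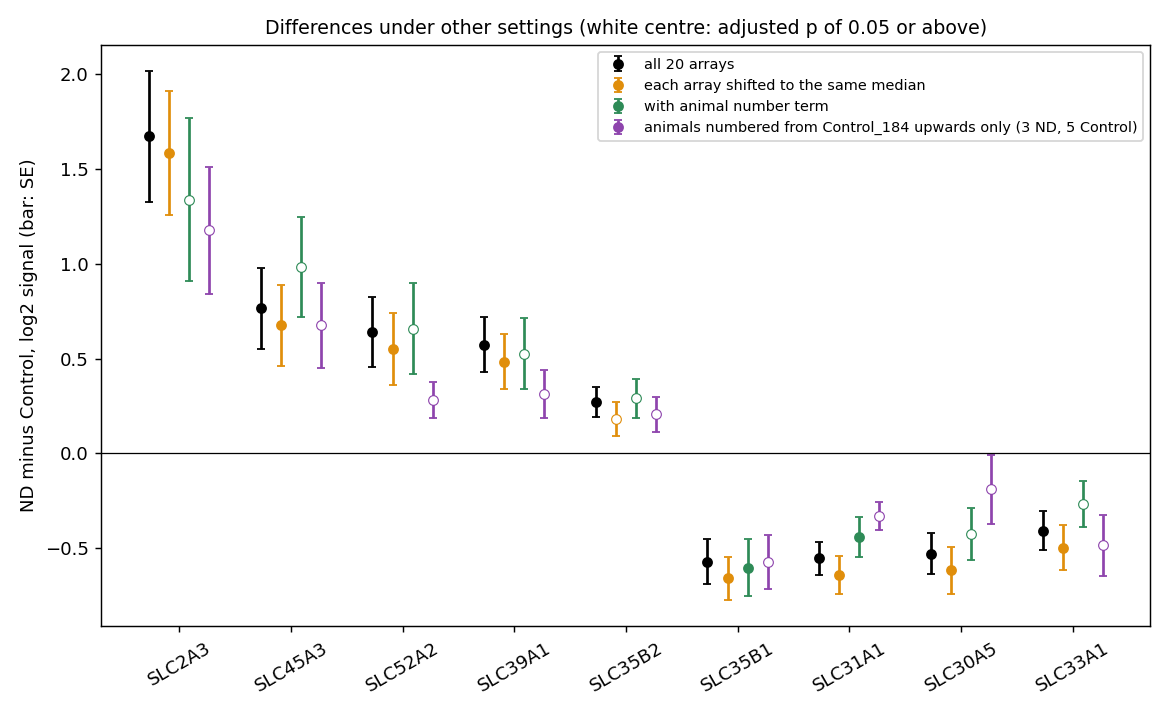
ND minus Control difference in log2 signal, with its SE, of the 9 called genes in all 20 arrays, with arrays shifted to the same median, with an animal number term, and in the 3 ND and 5 Control animals from Control_184 upwards. A white centre marks an adjusted p of 0.05 or above. Signs do not change, while with the number term 2 of 9 points remain filled and in the subset none does.

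Other transport genes of the kidney were read beside the 9.99% of all genes that passed in either direction and the 4.55% that were lower. A list of genes that drive or anchor tubular transport had 7 measured members, and none passed. They were the pump subunits ATP1B1 (-0.11, adjusted p = 0.390) and FXYD2 (0.02, adjusted p = 0.886), the scaffold PDZK1 (-0.02, adjusted p = 0.930), KCNE3, TMEM27, WNK1 and WNK4. None of the 7 is a chloride channel gene, so the list says nothing of chloride channels. Of 10 measured ABC transporters and organic anion polypeptides 1 was lower in ND, the peroxisomal transporter ABCD3 (-0.75 ± 0.21, SE, adjusted p = 0.0371), and none higher. Among the 21 mitochondrial carriers none was higher and 3 were lower in ND: the ADP/ATP carrier SLC25A4 (-0.76), SLC25A17 (-0.79) and SLC25A33 (-0.65), with a median difference of -0.22 over the 21. Counts this small were not tested against the share of all genes. SLC37A4, the glucose-6-phosphate transporter left out by the rule, averaged 11.94 in ND and 12.79 in Control (-0.86 ± 0.19, SE, adjusted p = 0.00862). Of 6 measured markers of the loop of Henle, the distal tubule or the collecting duct none passed, at a median difference of -0.27. Of these AVPR2 and SCNN1A were at background on all arrays. AQP3 differed by -0.54, KCNJ1 by -0.50, SCNN1B by -0.49 and CLDN10 by 0.09. None of 5 red cell markers passed, at a median difference of -0.03. AHSP, EPOR and HBE1 were at background on all arrays and ALAS2 was above it on 1, so only HBB (-0.21) was readable.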

How the data were processed

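The table deposited by the authors gives each probe set 1 value on each array, from 250 ng of TRIzol-extracted total RNA made into biotin-labelled cRNA, per the labels' protocols. That the deposited values are log2 signals was inferred from their range of 0.882 to 16.2. Their background correction, summarization and normalization are not given in the sources used here, and another scaling can move the balance of higher and lower calls. The labels describe 2 specimens per animal and list 1 array for each animal number, and an array therefore stands for an animal.

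Of 24123 probe sets 124 controls were left out. The other 23999 were fitted in R 4.3.3 by limma 3.58.1 (lmFit, then eBayes with no trend, no covariate), and p-values were adjusted over all of them. Gene symbols came from the platform annotation: 10069 probe sets had 1 symbol, 198 several and 13732 none here. Of the 95 genes 93 matched a RefSeq gene table (Sscrofa11.1 assembly), all 93 under the same symbol. Several probe sets measured 31 of the genes, and the brightest was used. The groups share no animal number, and the labels name no batch.

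The members, the classes and the marker lists were chosen with earlier results of these data known. Genes named are every member that passed, the 2 of each class with the smallest p that did not, the 12 measured of 32 kidney and metabolic transporters of prior interest, the 5 brightest and the 5 most variable within groups (44 genes). SLC1A4 and SLC7A4 fall outside that rule and were named after their values were seen, as were SLC2A2, SLC7A9, SLC7A7 and SLC37A4, which the rule for members leaves out. The fit was tested on simulated data with 10 arrays in each group. It recovered 37.3% of changes of 0.5 in log2 signal, 80.6% of changes of 1 and 100% of changes of 2. Of its 160 calls 15 were false. Most changes of 0.5 were thus missed there, so a gene that did not pass cannot be read as unchanged. The fit was repeated with other scalings, without dim probe sets, with a variance trend, with array weights, on gene means, with animal number and without each animal in turn.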

Additional observations from a re-analysis of the deposited data

Results flagged for a closer look

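Of 88 groups checked (44 genes in ND and in Control), 11 held an animal far from the other 9. Chance flags about 1 group in 20, and the genes are not independent of each other. ND_47 was that animal in 7 of the 11. It was the highest ND animal for SLC34A2 at 7.43 (next 2.0), SLC11A1 at 4.02 (next 1.97), SLC35C1 at 6.9 (next 5.54) and SLC37A1 at 2.55 (next 1.91), the last below background. It was the lowest for SLC3A1 at 10.9 (next 11.6), SLC35F5 at 11.3 (next 12.1) and SLC39A4 at 2.67 (next 3.02), the last below background. Control_134 was the lowest Control animal for SLC22A6 at 7.1 (next 8.63) and the highest for SLC8A1 at 3.71 (next 2.58). ND_22 was the highest ND animal for SLC8A1 at 2.95 (next 2.55). Control_156 was the lowest Control animal for SLC9A3R1 at 12.7 (next 13.2). None of these genes passed the test on all 20 arrays.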

How the results depend on the processing

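The 9 called genes kept their direction in all alternatives run, and all 9 kept their call with the dim filter and with gene means. SLC35B2 lost its call with arrays shifted to the same median, quantile normalization and the variance trend, SLC45A3 with quantile normalization and array weights, and SLC52A2 with quantile normalization. The count lower in ND was 24 with arrays at the same median (median difference -0.12), 2 with the animal number term and 0 among animals from Control_184 upwards. The count higher was 3 with quantile normalization, 0 with the number term and 0 in the subset. Leaving out 1 animal gave 2 to 6 higher and 4 to 6 lower, with the fewest higher, 2, without Control_02, Control_156 or ND_92, and 3 without ND_01, ND_86, ND_100, ND_198, Control_157, Control_184, Control_190 or Control_197.

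Among the 44 genes named by rule, those that changed sign had not passed in the main comparison. With arrays at the same median SLC2A1 was at -0.0077 and SLC37A1 at -0.0367, with array weights SLC22A2 at 0.0031 and with the number term SLC22A8 at 0.0645. Among animals from Control_184 upwards, SLC11A1 was at -0.0239, SLC1A5 at -0.0907, SLC22A6 at 0.0799, SLC22A8 at 0.1902, SLC26A6 at 0.1145, SLC34A2 at -0.0206, SLC37A1 at -0.0161 and SLC4A4 at 0.1489, and the SLC3A2 minus SLC7A7 difference described under other observations at -0.1535. Leaving out 1 animal moved SLC11A1 between -0.0236 and 0.2116, SLC22A8 between -0.3401 and 0.0079, SLC2A1 between -0.0138 and 0.2205, SLC34A2 between -0.0341 and 0.5839 and SLC37A1 between -0.0136 and 0.0629. Of all 95 genes 22 crossed 0 when 1 animal was left out. The cause was not tested.

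No paired analysis was possible because the groups share no animal number. The number term rests on 1 Control animal numbered up to 100, and the subset on 3 ND animals. Genes at background have no readable level here.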

Other observations

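SLC3A1 and SLC7A9 encode the heavy and light chain of 1 exchanger, and the pair was picked after the values of both were seen, so no test is given. The SLC3A1 minus SLC7A9 signal within an array, in which a shift of the whole array cancels, was 2.09 ± 0.58 (1.31 to 3.13) in ND and 0.44 ± 0.42 (-0.44 to 1.15) in Control (SD, n = 10 each). The difference between group means was 1.66 over all animals, 1.56 without ND_47 and 1.48 in the 3 ND and 5 Control animals from Control_184 upwards. Signals of different probe sets are not on 1 scale, so the value within a group says nothing of which chain is more abundant.

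For the other heavy and light chain pair, SLC3A2 minus SLC7A7, the values were -1.89 ± 0.49 in ND and -2.28 ± 0.45 in Control (SD, n = 10 each). ND and Control values overlapped. The difference between group means was 0.39 over all animals and 0.35 without ND_47. It changed sign, to -0.15, in the 3 ND and 5 Control animals from Control_184 upwards.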
